A study of Homo sapiens with 9 samples.

Results

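Cells meet DNA damage with several repair routes besides lesion bypass, and the RNA of 48 genes of those routes was followed here after REV1 knockdown. The 48 genes were chosen by symbol, from a list of Fanconi anaemia, homologous recombination and replication checkpoint genes, and all 48 were found among the 18143 genes of the deposited tables. All 48 had enough reads to be tested, with a lowest count of 28 in any library. The question asked was whether the loss of a lesion bypass polymerase is accompanied by changed RNA of the other repair routes.

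REV1 is a Y-family DNA polymerase that inserts bases opposite damaged template bases and serves as a platform for other bypass polymerases. The Fanconi pathway acts where the strands of DNA are covalently crosslinked: a core complex loads the E2 enzyme UBE2T and attaches ubiquitin to FANCD2 and FANCI, which brings in nucleases that cut the crosslink out. The broken end that results is resected and, with BRCA2 and its partners, repaired from the sister chromatid. The ATR kinase, with its activators and mediators, senses single-stranded DNA at stalled forks and holds the cell cycle through CHEK1, and many of these genes are known to be transcribed mostly in S phase.

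A549 is a human lung adenocarcinoma cell line, and the cells were harvested 48 h after transfection with a scrambled control siRNA (Scramble) or with one of 2 siRNAs against REV1 (SiREV1#1, SiREV1#2). Each group held 3 libraries of poly(A)-selected RNA, numbered 1 to 3, with no other treatment and no DNA damaging agent. The labels do not say that the numbered libraries came from separate cultures, so p-values measure the spread between these samples, which may be technical. The deposited values were estimated read counts and FPKM, a level that allows for the length of the transcript and the depth of the library. The count column of SiREV1#2 replicate 3 repeated that of replicate 2 in 100.0% of the genes and was used once, so the count tests had 8 libraries, with totals from 13059082 (SiREV1#1 replicate 1) to 20166451, and the FPKM values had 9. Libraries with number 1 stood apart: their 10 most abundant genes held 14.8% to 22.9% of all FPKM, against 8.55% to 10.7% in numbers 2 and 3. By plan, siRNA and Scramble were compared within same-numbered libraries, with the number as a block in the edgeR fit.

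REV1 itself had 7.23, 7.9 and 8.44 FPKM in the Scramble libraries, 2.6, 2.92 and 3.36 after SiREV1#1, and 3.62, 3.36 and 3.18 after SiREV1#2. Neither siRNA group overlapped Scramble, while the 2 siRNA groups overlapped each other. The log2 fold change was -1.26 with SiREV1#1 (SE 0.125, edgeR adjusted p = 0.0016) and -1.26 with SiREV1#2 (SE 0.148, edgeR adjusted p = 0.0099), and the siRNAs differed by 0.002 ± 0.148 (SE). The call with SiREV1#2 was lost in edgeR with no replicate block (adjusted p = 0.15) and without Scramble replicate 1 (0.086), Scramble replicate 2 (0.16) or SiREV1#2 replicate 2 (0.11). All 10 A549 epithelial markers checked were in the tables, with summed levels of 9460 to 22500 FPKM, while 4 of 5 fibroblast and all 4 endothelial markers were under 1 FPKM in every library. Of the leukocyte markers 3 of 5 were listed, 1 of them under 1 FPKM everywhere, and their summed level was 20.4 to 40.4 FPKM in Scramble, 20.5 to 83.1 after SiREV1#1 and 28.8 to 49.9 after SiREV1#2. In bulk RNA, fewer cells of a kind and less RNA per cell cannot be told apart.

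After SiREV1#1, 13 of the 48 genes fell and none rose at an edgeR adjusted p under 0.05, where 6.96% of all 14205 genes tested fell and 5.32% rose. The genes that fell were FANCB, FANCL, FANCD2, BRCA1, XRCC2, RAD54L, RAD54B, RAD51AP1, NBN, BLM, TOPBP1, CLSPN and TIPIN. At an unadjusted p under 0.05, 21 were lower and 0 higher. The share of all genes under an unadjusted p of 0.05 was not counted, here or in later paragraphs. Whether such unadjusted counts exceed that share is therefore not known. The log2 fold change was below 0 for 39 of the 48 genes and its median was -0.31, against 0.004 over all genes tested. After SiREV1#2, 0 of 48 passed in edgeR, where 1.41% of all genes fell and 0.493% rose, and 5 were lower and 0 higher at an unadjusted p under 0.05. The median of the 48 genes was -0.13 there, against 0.007 over all genes. FANCI and BARD1 lay just outside the threshold after SiREV1#1, both at an edgeR adjusted p of 0.051, and XRCC2 lay just inside at 0.047.

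The calls depended on the pairing by number and on single libraries. In the edgeR fit with no replicate block, 0 of the 48 genes passed in either comparison at an adjusted p under 0.05, where 0.296% and 0.0% of all genes did. At an unadjusted p under 0.05, 10 of the 48 were lower after SiREV1#1 and 1 after SiREV1#2. Leaving out 1 library moved the count of 13 to 0 without Scramble replicate 1, Scramble replicate 3 or SiREV1#1 replicate 3, to 1 without Scramble replicate 2, to 5 without SiREV1#1 replicate 2 and to 16 without SiREV1#1 replicate 1. The shares of all genes called, in either direction, were then 2.84%, 2.31%, 2.36%, 2.28%, 6.87% and 24.3%. The 13 genes had a log2 fold change below 0 in every one of the 22 alternatives run, which include the same fit at a stricter threshold. Within replicates 2 and 3 alone all 13 passed, where 51.2% of all genes did, 26.1% lower and 25.1% higher. The 13 had been picked as lower from these same libraries, so neither result is separate support. DESeq2 with the block called 15 of the 48 genes lower, 12 of the 13 with FANCI, BARD1 and TIMELESS, where it called 8.32% of all genes lower. limma on FPKM with the block called 18 lower, the 13 with FANCA, FANCI, WDR48, BARD1 and ATRIP, where it called 12.7% of all genes lower. After SiREV1#2, limma called 5 of the 48 genes lower (UBE2T, XRCC3, RAD54L, EXO1 and BLM), where it called 7.19% of all genes lower, and DESeq2 called 2 (UBE2T and XRCC3), where it called 3.79%.

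**Figure D1:**
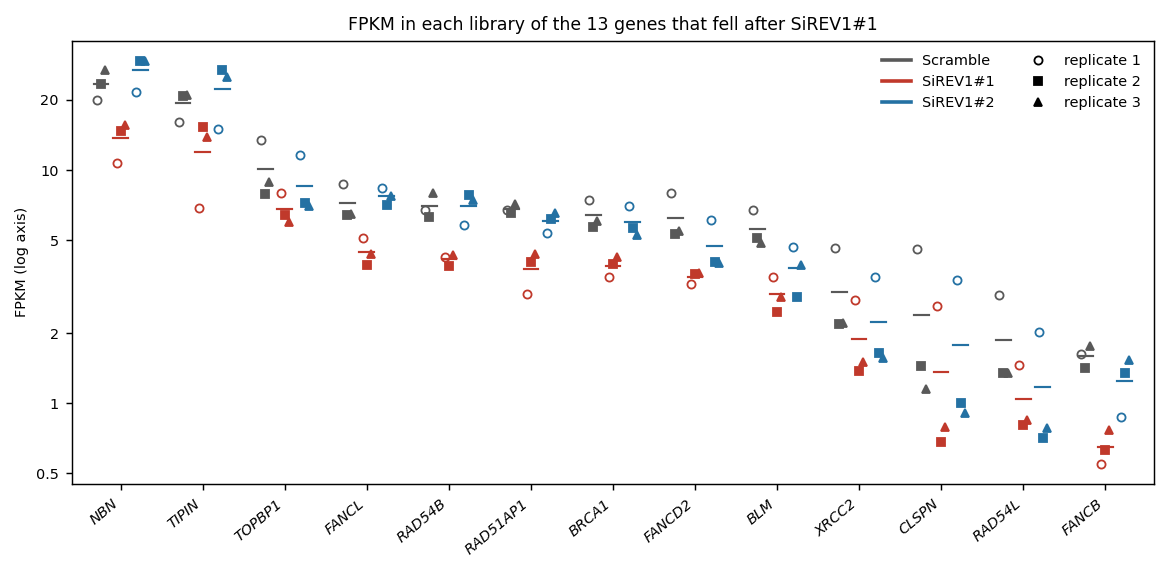
FPKM (vertical log axis) of the 13 genes that fell after SiREV1#1, in each of the 9 libraries. Colours give the group, symbols the replicate number and short lines the group mean. For NBN, FANCL and RAD51AP1 the SiREV1#1 libraries lie below all others, while for XRCC2, CLSPN and RAD54L replicate 1 (open circles) is the highest library of each group.

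The plot of FPKM by library shows 2 patterns among the 13. NBN, FANCB, FANCL, RAD54B, RAD51AP1, BRCA1, FANCD2 and BLM had SiREV1#1 levels that did not overlap those of Scramble. TIPIN also had a gap between these groups, but a narrow one. TOPBP1, XRCC2, CLSPN and RAD54L overlapped between the groups, since replicate 1 was high in each, and were lower only within each number. Over the 48 genes, 20 had all SiREV1#1 libraries below all Scramble libraries, as did 13.4% of all genes with a mean of at least 0.5 FPKM, and 0 had them above (6.27%). For SiREV1#2 these counts were 7 (UBE2T, PALB2, RAD51C, XRCC3, BLM, ATRIP and CHEK2, 9.3% of all genes) and 0 (6.45%).

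Among the 9 genes of the Fanconi core complex and its E2 enzyme, FANCB and FANCL fell after SiREV1#1. FANCB, a core subunit bound to FANCL and encoded on chromosome X (GRCh38 chrX:14835961-14873069), had 1.62, 1.42 and 1.76 FPKM in Scramble and 0.55, 0.63 and 0.77 after SiREV1#1. That was the lowest log2 fold change of the 48 genes, -1.15 (SE 0.204, edgeR adjusted p = 0.012). FANCB had 0.87, 1.35 and 1.53 FPKM after SiREV1#2, where 1 library lay within the Scramble range and the others below it. FANCL, the E3 ligase of the complex, had 8.75, 6.41 and 6.5 FPKM in Scramble, 5.12, 3.91 and 4.35 after SiREV1#1 and 8.39, 7.09 and 7.75 after SiREV1#2. Its log2 fold change was -0.59 with SiREV1#1 (SE 0.151, edgeR adjusted p = 0.042) and 0.07 with SiREV1#2. Genes on the opposite strand cover 19.7% of its exon bases, and whether the counting used strand is not given in the sources used here. UBE2T, the E2 enzyme, had the lowest p of this group after SiREV1#2, with 51.01, 36.27 and 35.21 FPKM in Scramble and 31.47, 24.98 and 25.51 after SiREV1#2, a log2 fold change of -0.59 (SE 0.138, edgeR adjusted p = 0.077). It passed in limma on FPKM with the same block and all 9 libraries (adjusted p = 0.013). The other core subunits did not pass with either siRNA in edgeR: FANCA, FANCE, FANCG and FANCM had log2 fold changes of -0.44 to -0.09 after SiREV1#1, and FANCC and FANCF of 0.14 and 0.06. FANCA passed after SiREV1#1 in limma (adjusted p = 0.012). FANCE was the lowest of the 48 genes, with a Scramble mean of 1.14 ± 0.565 FPKM (SD, n = 3).

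FANCD2, which with FANCI forms the clamp that the core complex ubiquitinates, fell after SiREV1#1. It had 7.96, 5.31 and 5.5 FPKM in Scramble, 3.24, 3.6 and 3.63 after SiREV1#1 and 6.13, 4.05 and 4.0 after SiREV1#2. The log2 fold changes were -0.73 (SE 0.158, edgeR adjusted p = 0.025) and -0.32 (SE 0.183, edgeR adjusted p = 0.42). Transcripts of other genes, among them the pseudogene FANCD2P2, share 5.17% of the 50-base stretches of FANCD2. FANCI had 21.18, 13.04 and 13.58 FPKM in Scramble, 9.71, 9.86 and 10.4 after SiREV1#1 and 20.14, 13.53 and 12.68 after SiREV1#2. Its SiREV1#2 libraries overlapped those of Scramble and its SiREV1#1 libraries did not. USP1, which removes the ubiquitin, and WDR48, its cofactor, did not pass in edgeR, with log2 fold changes of -0.20 and -0.38 after SiREV1#1 and 0.09 and 0.09 after SiREV1#2. WDR48 passed after SiREV1#1 in limma (adjusted p = 0.044).

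All 5 genes of the BRCA group had negative log2 fold changes with both siRNAs, although those of BRCA1 and BRCA2 after SiREV1#2 changed sign with 1 library left out. BRCA1 passed after SiREV1#1. BRCA1, a scaffold and ubiquitin ligase that promotes end resection, had 7.42, 5.71 and 6.03 FPKM in Scramble, 3.49, 3.94 and 4.23 after SiREV1#1 and 7.02, 5.62 and 5.26 after SiREV1#2. The log2 fold change with SiREV1#1 was -0.56 (SE 0.126, edgeR adjusted p = 0.028) and with SiREV1#2 -0.04 (SE 0.145, edgeR adjusted p = 0.93). BARD1, its obligate partner, had values of -0.56 (SE 0.153) and -0.41 (SE 0.181, edgeR adjusted p = 0.29), BRCA2, which acts after resection, of -0.48 and -0.21, and BRIP1, a helicase bound by BRCA1, of -0.49 and -0.24. PALB2, the bridge between BRCA1 and BRCA2, had -0.17 and -0.32. None of these 4 passed in edgeR in either comparison, while BARD1 passed after SiREV1#1 in DESeq2 (adjusted p = 0.034) and in limma (adjusted p = 0.041).

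The recombination mediators held 4 of the 13 genes. RAD51AP1, which stimulates strand invasion, had 6.72, 6.56 and 7.16 FPKM in Scramble, 2.93, 4.02 and 4.36 after SiREV1#1 and 5.35, 6.17 and 6.57 after SiREV1#2. Its log2 fold change with SiREV1#1 was -0.79 (SE 0.145, edgeR adjusted p = 0.014). RAD54L, a DNA-dependent motor protein of recombination, had 2.9, 1.35 and 1.35 FPKM in Scramble, 1.46, 0.81 and 0.85 after SiREV1#1 and 2.02, 0.71 and 0.78 after SiREV1#2. It was lower in every same-numbered pair with both siRNAs. The log2 fold changes of RAD54L were -0.72 (SE 0.18, edgeR adjusted p = 0.039) and -0.73 (SE 0.209, edgeR adjusted p = 0.13), the second with an adjusted p of 0.046 in limma, and LRRC41 on the opposite strand covers 25.1% of its exon bases. RAD54B, its paralog, had 6.76, 6.31 and 7.99 FPKM in Scramble, 4.23, 3.88 and 4.31 after SiREV1#1 and 5.82, 7.79 and 7.46 after SiREV1#2, with a log2 fold change of -0.68 (SE 0.179, edgeR adjusted p = 0.046) and of 0.02 with SiREV1#2. The value of RAD54B is uncertain, because 59.1% of its exon bases belong also to FSBP on the same strand. XRCC2, a subunit of a mediator complex, had 4.63, 2.19 and 2.2 FPKM in Scramble and 2.77, 1.37 and 1.51 after SiREV1#1, a log2 fold change of -0.57 (SE 0.152, edgeR adjusted p = 0.047). XRCC2 did not pass in DESeq2. XRCC3, another mediator subunit, had the opposite order of siRNAs: 10.14, 10.28 and 9.65 FPKM in Scramble, 7.7, 8.38 and 8.88 after SiREV1#1 and 7.2, 5.47 and 5.46 after SiREV1#2. Its log2 fold change with SiREV1#2, -0.64 (SE 0.169), had an edgeR adjusted p of 0.1 and a limma adjusted p of 0.017, and 76.7% of its exon bases lie opposite KLC1. RAD51C, RAD51D and RAD52 had log2 fold changes of -0.24, 0.18 and 0.05 after SiREV1#1 and -0.28, 0.22 and -0.10 after SiREV1#2, and none passed in edgeR, limma or DESeq2.

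NBN and BLM fell among the 5 genes of end resection. NBN, the subunit of the MRE11 nuclease complex that recruits ATM, had 20.07, 23.31 and 26.89 FPKM in Scramble, 10.75, 14.66 and 15.63 after SiREV1#1 and 21.7, 29.26 and 29.39 after SiREV1#2. After SiREV1#1 it lay below every other library, and after SiREV1#2 it was above the same-numbered Scramble library each time. The log2 fold changes were -0.82 (SE 0.124, edgeR adjusted p = 0.0066), the lowest p of the 48 genes, and 0.20 (SE 0.143, edgeR adjusted p = 0.53). BLM, the helicase mutated in Bloom syndrome, had 6.76, 5.12 and 4.89 FPKM in Scramble, 3.47, 2.47 and 2.86 after SiREV1#1 and 4.66, 2.86 and 3.92 after SiREV1#2. Both siRNA groups lay below Scramble. Its log2 fold changes were -0.73 (SE 0.147, edgeR adjusted p = 0.019) and -0.61 (SE 0.172, edgeR adjusted p = 0.12), the second with an adjusted p of 0.039 in limma. EXO1, a resection nuclease, had 9.41, 8.07 and 8.34 FPKM in Scramble, 8.81, 6.24 and 6.01 after SiREV1#1 and 8.14, 3.68 and 3.31 after SiREV1#2. Most of its change with SiREV1#2 was in replicates 2 and 3, and the log2 fold change of -0.69 (SE 0.233) had an edgeR adjusted p of 0.17 and a limma adjusted p of 0.032. RBBP8, the resection factor CtIP, and RAD50, the partner of NBN, had log2 fold changes of -0.28 and 0.03 after SiREV1#1 and -0.23 and -0.11 after SiREV1#2 and did not pass in edgeR, limma or DESeq2, and 79.7% of the exon bases of RAD50 are shared with AC116366.3 on the same strand.

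None of the 5 genes of the structure-specific nucleases, which cut crosslinks and joined recombination intermediates, passed with either siRNA in edgeR, limma or DESeq2. Their log2 fold changes lay between -0.09 and 0.12 after SiREV1#1, for ERCC1, MUS81, ERCC4, EME1 and SLX4 from the lowest to the highest, and between -0.28 and 0.29 after SiREV1#2, and 0 were under an unadjusted p of 0.05, also in the difference between the siRNAs. The lowest p was that of SLX4, a nuclease scaffold, after SiREV1#1 (0.12, SE 0.165, edgeR adjusted p = 0.67) and of ERCC4 after SiREV1#2 (0.29, SE 0.17, edgeR adjusted p = 0.43). ERCC1, the partner of the nuclease ERCC4, was the most abundant of the 48 genes, with a Scramble mean of 88.7 ± 11.3 FPKM (SD, n = 3). MUS81 and EME1 encode the subunits of one nuclease and differed oppositely between replicate numbers. MUS81 had 9.66 FPKM in Scramble replicate 1 against 22.88 and 23.69 in the others, and EME1 had 4.68 against 1.16 and 1.09. The same held in each siRNA group, and over 2-fold in all 3 groups FANCA, EME1 and CLSPN were higher in replicate 1 (as were 6.19% of all genes with a mean of at least 0.5 FPKM) and MUS81 was lower (9.0%). Of the 48 genes, 3 higher is near the share over all genes and 1 lower is below it.

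Of the 10 checkpoint genes, TOPBP1, CLSPN and TIPIN fell after SiREV1#1, all of them activators or mediators of ATR rather than kinases. TIPIN, which with TIMELESS travels with the replication fork, had 16.14, 20.79 and 20.96 FPKM in Scramble, 6.88, 15.28 and 13.92 after SiREV1#1 and 15.04, 26.84 and 25.1 after SiREV1#2. Its log2 fold change was -0.65 (SE 0.159, edgeR adjusted p = 0.036) with SiREV1#1 and 0.14 with SiREV1#2. Of the exon bases of TIPIN, 21.0% are shared with the pseudogene RPL9P25. Transcripts of other genes, among them RPL9, share 20.1% of the 50-base stretches of TIPIN. CLSPN, the adaptor through which ATR reaches CHEK1, had 4.58, 1.45 and 1.15 FPKM in Scramble, 2.62, 0.68 and 0.79 after SiREV1#1 and 3.39, 1.0 and 0.91 after SiREV1#2, a log2 fold change of -0.69 (SE 0.153, edgeR adjusted p = 0.027) with SiREV1#1 and of -0.36 (SE 0.174, edgeR adjusted p = 0.33) with SiREV1#2. It was lower within each number with both siRNAs. TOPBP1, the activator of ATR, had 13.4, 7.87 and 8.93 FPKM in Scramble and 7.98, 6.41 and 6.0 after SiREV1#1, a log2 fold change of -0.47 (SE 0.122, edgeR adjusted p = 0.046). The kinases ATM, ATR, CHEK1 and CHEK2 had log2 fold changes of -0.19, -0.36, 0.05 and -0.32 after SiREV1#1 and of 0.08, 0.08, -0.21 and -0.03 after SiREV1#2, and none passed in edgeR, limma or DESeq2. TIMELESS, ATRIP (the partner of ATR, with 27.9% of its exon bases shared with TREX1) and TP53BP1 had -0.60, -0.50 and -0.17 after SiREV1#1 and also did not pass in edgeR. TIMELESS passed there in DESeq2 (adjusted p = 0.047) and ATRIP in limma (adjusted p = 0.034). HLTF and SHPRH, ubiquitin ligases that extend ubiquitin chains on PCNA and so act at the same stalled forks as REV1, had -0.17 (SE 0.191, edgeR adjusted p = 0.6) and -0.08 after SiREV1#1 and -0.08 and 0.17 (SE 0.228, edgeR adjusted p = 0.77) after SiREV1#2. Neither passed at an unadjusted p of 0.05.

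**Figure D2:**
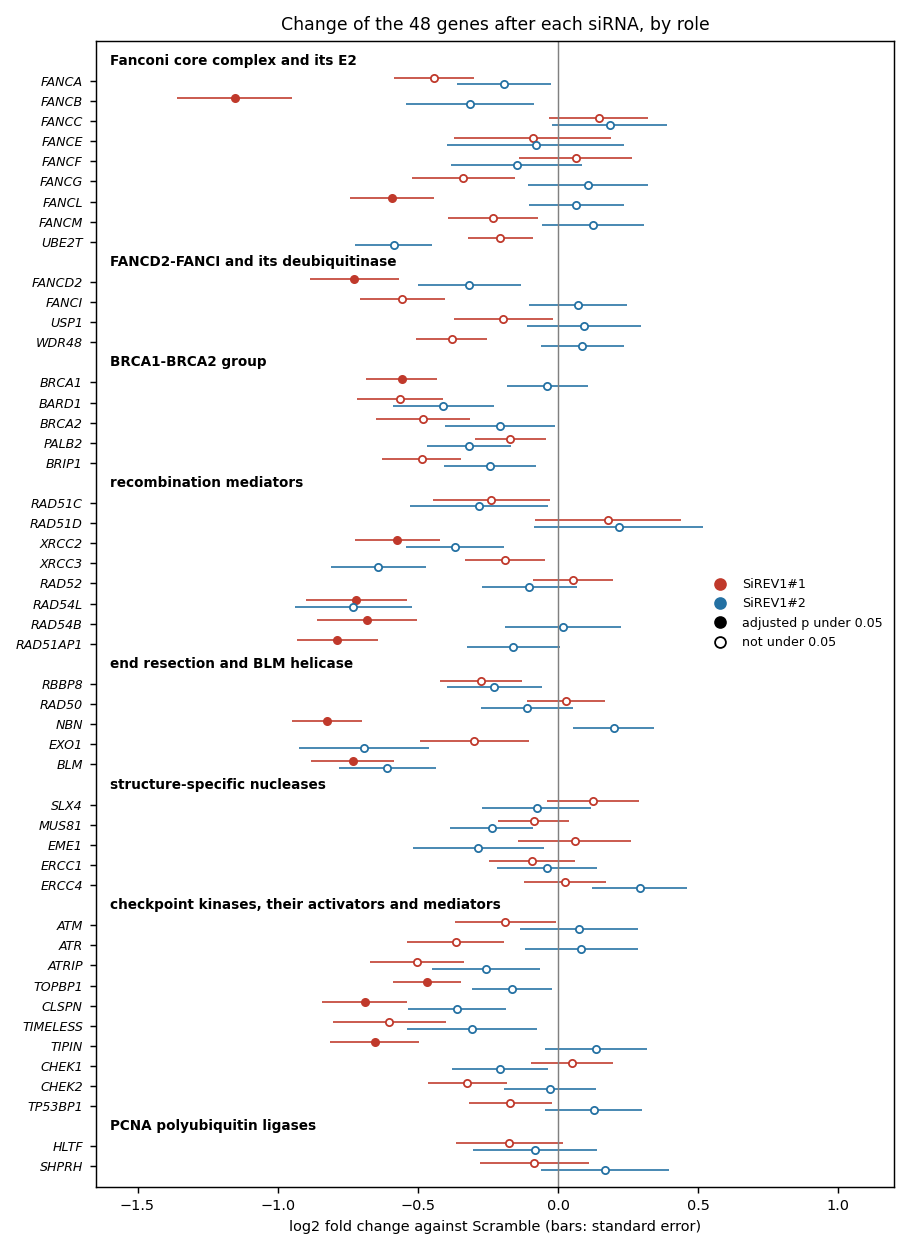
Log2 fold change of each of the 48 genes against Scramble (horizontal axis), by role group, for SiREV1#1 in red and SiREV1#2 in blue. Bars are standard errors of the edgeR fit with the replicate block and filled points have an adjusted p under 0.05. The 13 filled points are all of SiREV1#1 and all below 0, and the structure-specific nucleases lie near 0.

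The difference between the siRNAs was tested in the same fit. SiREV1#1 was lower than SiREV1#2 for 7 of the 48 genes and higher for 0 at an edgeR adjusted p under 0.05, where 8.87% of all genes were lower and 8.75% higher. These were NBN (-1.02 on the log2 scale, SE 0.142, edgeR adjusted p = 0.0042), FANCB (-0.84, SE 0.241), TIPIN (-0.79, SE 0.185), FANCL (-0.66, SE 0.175), RAD51AP1 (-0.63, SE 0.17), FANCI (-0.63, SE 0.176) and BRCA1 (-0.52, SE 0.147), the last 6 with edgeR adjusted p from 0.025 to 0.048. Of the 48 genes, only NBN passed when Scramble replicate 2 or 3, SiREV1#1 replicate 3 or SiREV1#2 replicate 2 was left out, where 8.56%, 9.69%, 9.71% and 3.71% of all genes passed. NBN and TIPIN passed without Scramble replicate 1 (13.9% of all genes) or SiREV1#1 replicate 2 (9.71%). Without SiREV1#2 replicate 1, FANCB, RAD54B and NBN were lower and EXO1 was higher (12.4% of all genes passed in either direction). Without SiREV1#1 replicate 1, 9 were lower and 0 higher (28.5% passed in either direction). With no replicate block 0 passed at an adjusted p under 0.05, where 0.676% of all genes did. At an unadjusted p under 0.05, 9 of the 48 were lower in that fit. In limma on FPKM, 9 were lower, WDR48 and RAD54B added, and 1 was higher, XRCC3, where 19.9% of all genes were lower and 15.2% higher. For the 7 other genes that fell after SiREV1#1 and did not pass in this contrast, the difference from SiREV1#2 lay between -0.70 (RAD54B) and 0.01 (RAD54L).

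Within same-numbered libraries, which gives each of the 9 FPKM columns its own part, 34 of the 48 genes were lower after SiREV1#1 in 3 of 3 pairs, as were 34.6% of all genes with a mean of at least 0.5 FPKM. SLX4 was the 1 gene higher in 3 of 3, as were 19.6% of all genes. After SiREV1#2, 25 were lower in 3 of 3 pairs (29.5% of all genes) and NBN and ERCC4 were higher (25.2%). The median log2 ratio of the 48 genes, with 0.1 FPKM added, was -0.63, -0.32 and -0.35 in pairs 1, 2 and 3 after SiREV1#1, against -0.206, -0.028 and -0.015 over all genes. After SiREV1#2 it was -0.21, -0.11 and -0.18, against -0.049, 0.0 and 0.014. Pair 1 of SiREV1#1 was thus the lowest for the 48 genes and for all genes alike, and it holds the shallowest library.

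**Figure D3:**
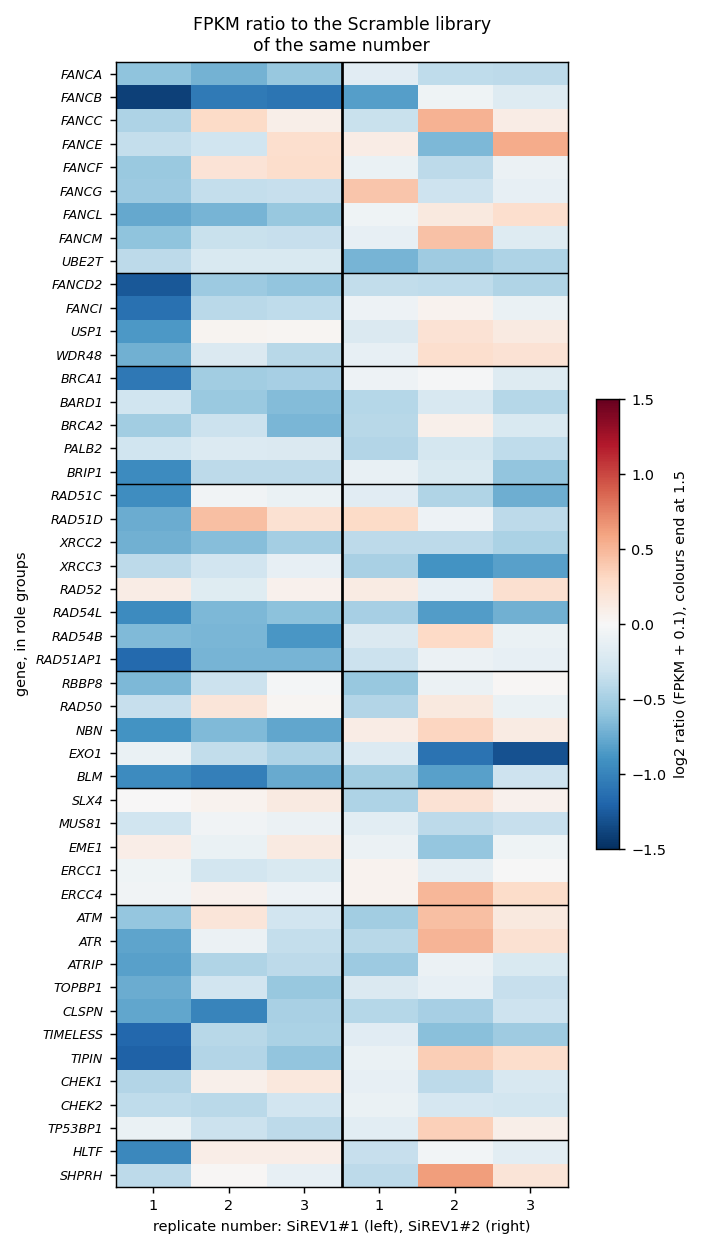
Log2 FPKM ratio of each siRNA library to the Scramble library of the same number, with 0.1 FPKM added, for the 48 genes (rows, in role groups separated by lines) and the 3 numbers of each siRNA (columns). Blue is lower and red higher than Scramble. In the SiREV1#1 columns 34 rows are blue in all 3, and in the SiREV1#2 columns 25.

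The siRNA sequences were compared with the transcripts of the 48 genes, because bases 2 to 8 of a guide strand can pair with other RNAs. The matching word is CAGGAAT for SiREV1#1 and GGACGAC for SiREV1#2, and both were searched in the sense strand of GENCODE 29 transcripts (GRCh38), taking for each gene the longest 3′ UTR and the longest coding sequence of its protein-coding transcripts. The windows below show each word in capitals, first at its target in REV1. Then come coding sequences of FANCB, FANCD2, TOPBP1 and CLSPN, which fell after SiREV1#1. RAD54B and NBN also fell and hold the word, but their windows are not shown.
REV1, SiREV1#1 target: aacagtgacgCAGGAATaaatttaata
REV1, SiREV1#2 target: catcaaagctGGACGACtcctctccta
FANCB: taatctattcCAGGAATcaaacagtta
FANCD2, first of its sites: cttaagatatCAGGAATtattcttaaa
TOPBP1, first of its sites: ccagtaatgaCAGGAATgactccttta
CLSPN, first of its sites: agtgttgcaaCAGGAATccaacttcct
The words lie at chr2:99404475-99404481 and chr2:99442453-99442459 (REV1, minus strand), chrX:14843978-14844505 (FANCB, minus strand, across an exon junction), chr3:10032931-10032937 (FANCD2, plus strand), chr3:133643293-133643299 (TOPBP1, minus strand) and chr1:35760627-35760633 (CLSPN, minus strand). In the 3′ UTR, the region where such pairing is best known, CAGGAAT occurred in 0 of the 13 genes that fell and in 4 of the 35 others (FANCF, RAD51D, MUS81, SHPRH), against 15.7% of all genes tested. In the coding sequence it occurred in 6 of the 13 genes that fell (FANCB, FANCD2, RAD54B, NBN, TOPBP1, CLSPN) and in 9 of the 35 others (25.7%), against 16.5% of all genes tested. Coding sequences are longer here, with a median of 2577 bases in the 13 genes, 2373 in the 35 others and 1428 over all genes. Per 100000 coding bases there were 27.3, 8.02 and 11.1 words. GGACGAC was in the 3′ UTR of 1 of the 48 genes, FANCA, and in no coding sequence, against 1.31% and 10.3% of all genes. The part of these words in the changes was not tested.

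Promoters were looked at for letters linked to cell cycle transcription, from 250 bases before to 50 after the start site in RefSeq (GRCh38.p14), on both strands. A promoter was matched for 45 of the 48 genes, FANCI, RAD54B and NBN being the others. The E2F word TTTNGCGC was found in 4 of 45 (8.89%), against 2.93% of all 11421 promoters, and they are shown with the word in capitals, in the direction of the gene.
FANCC: cggggcttccGCGCGAAAccgggaacac
EXO1: aaggtcagccTTTCGCGCgctgtgtagg
TOPBP1: cgcgcggttgGCGCGAAAgtcggttccc
CHEK2: tatctgcaggTTTAGCGCcactctgctg
The words lie at chr9:95317874-95317881 (FANCC, minus strand), chr1:241848208-241848215 (EXO1, plus strand), chr3:133661941-133661948 (TOPBP1, minus strand) and chr22:28741822-28741829 (CHEK2, minus strand). Of these 4 genes, TOPBP1 fell after SiREV1#1. The CHR word TTTGAA was in 5 of 45 (11.1%), against 9.94% of all promoters, and the box CCAAT in 21 of 45 (46.7%), against 36.4%. Of the 11 genes that fell and had a promoter, 1 held the E2F word, 0 the CHR word and 5 the CCAAT box.

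Lists of other genes show what moved beside the 48. Of 32 other Fanconi and recombination genes, 9 fell after SiREV1#1 and 0 rose, with a median log2 fold change of -0.29. RMI2, a partner of BLM, changed by -1.64 (SE 0.174, edgeR adjusted p = 0.0022) and the helicase MCM9 by -0.95 (SE 0.174, edgeR adjusted p = 0.014). After SiREV1#2, 0 of the 32 passed in edgeR (3 lower and 1 higher at an unadjusted p under 0.05), 3 in limma and 1 in DESeq2.

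Cell cycle genes fell as well. Of 20 S phase markers 6 fell after SiREV1#1 and 0 rose, with a median log2 fold change of -0.56, and of 18 G2 and M phase markers 8 fell and 0 rose, with a median of -0.57. CDK1, the mitotic kinase, had 57.58, 82.72 and 89.8 FPKM in Scramble, 14.61, 29.97 and 30.79 after SiREV1#1 and 37.89, 74.15 and 71.61 after SiREV1#2. Its log2 fold change with SiREV1#1 was -1.58 (SE 0.134, edgeR adjusted p = 0.0011), and those of AURKA and UHRF1 were -0.90 (SE 0.121) and -0.93 (SE 0.129). After SiREV1#2, 1 S phase marker (UHRF1, -1.62, SE 0.157, edgeR adjusted p = 0.0075) and 1 G2 and M phase marker (CDC20, -1.63, SE 0.273, edgeR adjusted p = 0.031) fell, with medians of -0.46 and -0.35. The medians of both marker lists were thus lower than that of the 48 genes with either siRNA. At an unadjusted p under 0.05, 14 S phase and 12 G2 and M phase markers were lower after SiREV1#1 and 10 and 5 after SiREV1#2. None was higher. For SiREV1#2, limma called 6 and 4 lower, where it called 7.19% of all genes lower, and DESeq2 called 4 and 3. The part of the cell cycle in the fall of the 13 genes was not tested.

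Other repair routes were counted in the same way. Of 24 other checkpoint and double-strand break signalling genes, 4 fell and 3 rose after SiREV1#1, among them BRCC3, a deubiquitinase of the BRCA1-A complex (-0.90, SE 0.122, edgeR adjusted p = 0.0049). After SiREV1#2, 1 fell, RHNO1 (-1.14, SE 0.21, edgeR adjusted p = 0.041), and 2 rose, WEE1, the kinase that restrains CDK1 (1.12, SE 0.14, edgeR adjusted p = 0.013), and the phosphatase CDC25A (0.89, SE 0.154, edgeR adjusted p = 0.033). WEE1 had 7.48, 11.42 and 12.12 FPKM in Scramble and 14.25, 27.13 and 25.21 after SiREV1#2. In nonhomologous end joining 0 of 9 genes passed with either siRNA in edgeR, at an unadjusted p under 0.05 or in DESeq2, and 1 fell in limma after SiREV1#1. In nucleotide excision repair 1 of 18 fell after SiREV1#1 (ERCC3, -0.62, SE 0.115, edgeR adjusted p = 0.014), in mismatch repair 2 of 7 (MSH3, -0.80, SE 0.131, and PMS2, -0.43, SE 0.114), and in base excision and single-strand break repair 4 of 22 fell, led by NEIL2 (-1.39, SE 0.209, edgeR adjusted p = 0.0067), and 2 rose. With SiREV1#2, 0 genes of these 3 lists passed in edgeR, where 3, 1 and 2 were under an unadjusted p of 0.05. DESeq2 called 1, 0 and 1 of them, and limma 2, 0 and 1. Of 20 p53 target genes 3 rose and 2 fell after SiREV1#1, with MDM2 at -1.53 (SE 0.17), SESN2 at 1.34 (SE 0.158) and BTG2 at 1.18 (SE 0.147), and 1 fell after SiREV1#2, FDXR (-1.06, SE 0.202, edgeR adjusted p = 0.046). Their median log2 fold changes were 0.054 and -0.325. After SiREV1#2, 8 of the 20 were lower and 0 higher at an unadjusted p under 0.05. There limma called 4 lower, against 7.19% of all genes, and DESeq2 called 2. Between the siRNAs, 8 were higher and 2 lower with SiREV1#1 in edgeR, against 8.75% and 8.87% of all genes.

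**Figure D4:**
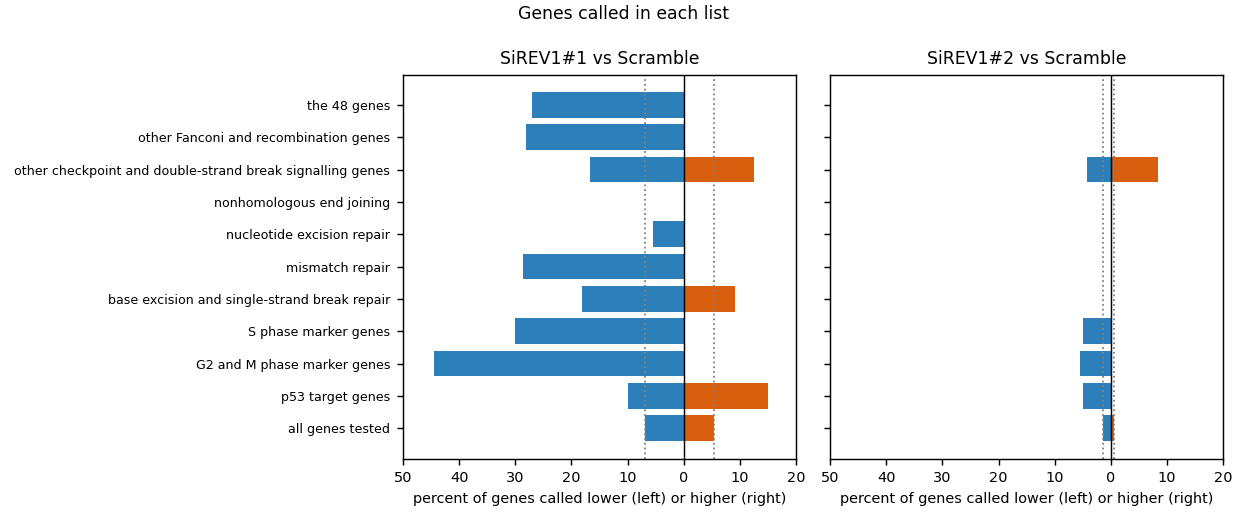
Percent of the genes of each list called lower (left of 0, blue) or higher (right of 0, orange) at an edgeR adjusted p under 0.05, for each siRNA against Scramble. Dotted lines mark the shares over all genes tested, 6.96% lower and 5.32% higher with SiREV1#1 and 1.41% and 0.493% with SiREV1#2. The 48 genes have 13 called lower after SiREV1#1 and none after SiREV1#2.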

How the data were processed

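RNA-seq of A549 cells was analysed from 9 libraries, 3 in each of the groups Scramble, SiREV1#1 and SiREV1#2, grouped by the labels. The deposited tables held, per gene, estimated counts (expected counts, 42.6% of them not whole) and FPKM made by the authors. The submitters' processing notes name StringTie 1.3.3b and hg38. The aligner, the counting tool and any use of strand are not given in the sources used here, so reads of overlapping genes could be split in unknown ways. Estimated counts of 8 libraries were rounded. The count column of SiREV1#2 replicate 3 repeated that of replicate 2, under whose name it is headed, and replicate 3 had no count of its own here.

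Counts were tested in edgeR 4.0.16 (R 4.3.3) with TMM scaling, the default filter on low counts, quasi-likelihood F tests and Benjamini-Hochberg adjustment over 14205 genes. All groups entered one fit with the replicate number as a block. A standard error here is the size of the fold change (log2) over the root of its F, and 3 residual degrees of freedom remained. The pairing came from the labels' numbers: after subtraction of group means, libraries of the same number correlated at 0.734 to 0.929 in 9 pairs over 11432 genes. The biological coefficient of variation was 0.161 with the block and 0.412 without. FPKM of all 9 libraries were tested in limma 3.58.1 on log2(FPKM + 0.1) over 12338 genes with a mean of at least 0.5 FPKM. Fold changes on that scale understate changes of low genes. Alternatives were DESeq2 1.42.0, other scalings, filters, thresholds and sample sets.

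Members and lists were chosen with earlier results of these data known, and no p-value was computed for a list. Full statistics are given for members past the threshold (up to 15 per comparison) and, in a role group with none, for the one of lowest p, and for up to 3 genes of each other list. EXO1 and RAD54L after SiREV1#2, FANCI and the coding sequence word search were added after their values were seen. Of 25 other checkpoint genes 24 were found. A gene of the other recombination list is not reported here.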

Additional observations from a re-analysis of the deposited data

Results flagged for a closer look

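In all, 7 of the 48 genes differed between the siRNAs in the edgeR fit, by a test of the difference itself. That is a smaller share than the 17.6% of all genes tested that differed in either direction. All 7 were lower with SiREV1#1, as were 8.87% of all genes. Leaving out 1 library left NBN alone of the 48 in 4 of the 8 cases. SiREV1#1 was lower than SiREV1#2 by a log2 difference of -1.02 for NBN, -0.84 for FANCB, -0.79 for TIPIN, -0.66 for FANCL, -0.63 for RAD51AP1, -0.63 for FANCI and -0.52 for BRCA1. REV1 itself differed by 0.002 ± 0.148 (SE) in the same contrast. With groups of 3, no library was tested as standing far from the others of its group. The cause of these differences was not tested.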

How the results depend on the processing

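Calls depended on the pairing by replicate number. Without the replicate block, edgeR called 0 of the 48 genes after SiREV1#1, 0 after SiREV1#2 and 0 between the siRNAs. Without it limma called 0, 0 and 1, where it called 1.04%, 0.446% and 4.87% of all genes. REV1 after SiREV1#2 kept a log2 fold change of -1.33 in edgeR without the block, with an adjusted p of 0.15. Among the 168 genes of the other lists, called in edgeR 44, 6 and 36 times with the block, the counts without it were 0, 0 and 0 in edgeR and 0, 0 and 7 in limma. At an adjusted p under 0.01, 1 of the 48 genes passed after SiREV1#1 (NBN) and 1 between the siRNAs (3.53% and 5.48% of all genes), and 12, 1 and 8 of the other lists. With replicates 2 and 3 only, 30, 20 and 25 of the 48 and 109, 90 and 107 of the 168 passed, where 51.2%, 42.3% and 56.3% of all genes did. For SiREV1#2, DESeq2 called 2 members and 17 others, a fit of only the 2 groups 4 and 21, limma with the block 5 and 27 (5 and 25 with 0.1 FPKM added), and a fit with the counts of replicate 3 estimated from FPKM 5 and 26, where 5.91%, 8.89%, 10.5% (10.6%) and 12.4% of all genes passed. For the difference, upper-quartile scaling called 4 members, the 2 groups alone 1 and 10 others, limma 57 others (58 with 0.1 FPKM added), and the estimated counts 12 and 59, where 17.1%, 6.51%, 35.1% and 33.9% of all genes passed. Leaving out 1 Scramble or SiREV1#1 library gave 0 to 16, 0 to 4 and 1 to 9 members and 7 to 62, 0 to 26 and 16 to 53 others. In those fits 2.28% to 24.3%, 0.0% to 11.7% and 8.56% to 28.5% of all genes passed. Fits without a SiREV1#2 library left 1 count library in that group and are not in these ranges. Leaving out any 1 library gave REV1 log2 fold changes of -1.28 to -1.23 and -1.33 to -1.20. The latter had an edgeR adjusted p over 0.05 without Scramble replicate 1 or 2. Leaving out 1 library changed the sign of 11, 24 and 17 of the 48 genes in the 3 comparisons, none of them called in edgeR with the block. Among the genes named for the lowest p of a role group with no call, these were HLTF after SiREV1#1 (0.11 in replicates 2 and 3, and -0.32 to 0.079 leaving out 1 library), SHPRH after SiREV1#2 (-0.30 to 0.57) and SHPRH between the siRNAs (-0.65 to 0.23). Scaling by total counts moved the split over all genes after SiREV1#1 from 988 lower and 756 higher to 1171 and 520. The causes were not tested. The planned fit with all 9 count columns as deposited was not run, because the last column is headed as replicate 2, and SiREV1#2 replicate 3 had no counts to leave out.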
